A study of Mus musculus with 6 samples.

Results

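Dendritic cells take up antigen and show it to T cells, and 8 genes that mark them or their subsets were followed here in RNA from splenic endothelial cells. The genes were taken by symbol by the usual division of dendritic cells: Itgax and Zbtb46 for conventional dendritic cells as a whole, Xcr1, Clec9a and Batf3 for conventional type 1 cells, Cd209a for conventional type 2 cells, Siglech for plasmacytoid cells and Cd83 for maturation. All 8 were found among the 23207 genes of the count table, and all 8 were among the 19745 genes that had enough counts to be tested. The mice were Apoe-knockout animals, which lack apolipoprotein E, on a high cholesterol diet. For 8 weeks they received an antisense oligonucleotide (ASO, a short synthetic strand that binds a matching RNA and has it degraded), either a control ASO (mice 1601, 1602 and 1608) or an ASO against Mlkl, the membrane-rupturing pseudokinase of necroptosis (mice 1603, 1604 and 1607, MLKL ASO). Each of the 6 libraries is 1 mouse. An ASO given to the whole animal can act in any cell that takes it up, so a group describes the treated mouse and not an endothelial deletion. The sources used here do not give age, sex, dose or the way the endothelial cells were isolated.

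In the spleen, conventional type 1 dendritic cells present antigen from dead cells to CD8 T cells, with Batf3 as a transcription factor they need, Clec9a as a receptor for exposed actin of dead cells and Xcr1 as a chemokine receptor. Conventional type 2 cells sit largely at the edge of the white pulp and prime CD4 T cells, and plasmacytoid cells are specialised for type I interferon. Several of these genes are also read in other cells: Zbtb46 in endothelium, Itgax (CD11c) in some macrophages, monocytes and natural killer cells, Siglech in some macrophages, and Cd83 in activated B cells and in cells that have met an NF-κB stimulus. In bulk RNA fewer cells of a type and less RNA per cell cannot be told apart.

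The promoters of 3 members are shown first. These were picked after the values were seen, because their order across the mice differed, and none of the 3 passed a test. Relative to the leukocyte gene Ptprc, as described below, Itgax lay apart and higher with the MLKL ASO, where 14.4% of all genes did. Cd209a lay apart and lower, where 1.28% did, but overlapped against a second leukocyte measure. Zbtb46, which endothelium also makes, was highest in the mouse with the most endothelial RNA. Each sequence is the 250 bases before the RefSeq start on build GRCm38.p6, read 5′ to 3′ on the strand of the gene. Whether that start is the one used in these cells was not tested. The Zbtb46 window ends in a stretch rich in C and T followed by CAG, as many introns do, so it may not be a promoter. Capitals mark the ETS core GGAAGT, a motif for PU.1 and related factors, and the AP-1 motif TGANTCA, both searched on both strands. The positions are chr7:128129300-128129549 on the plus strand for Itgax, chr8:3748985-3749234 on the minus strand for Cd209a and chr2:181424389-181424638 on the minus strand for Zbtb46.
Itgax: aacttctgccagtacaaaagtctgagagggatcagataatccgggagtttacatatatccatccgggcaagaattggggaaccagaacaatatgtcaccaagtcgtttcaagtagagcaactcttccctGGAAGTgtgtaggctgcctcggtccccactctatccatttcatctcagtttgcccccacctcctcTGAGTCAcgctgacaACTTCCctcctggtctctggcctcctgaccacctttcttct
Cd209a: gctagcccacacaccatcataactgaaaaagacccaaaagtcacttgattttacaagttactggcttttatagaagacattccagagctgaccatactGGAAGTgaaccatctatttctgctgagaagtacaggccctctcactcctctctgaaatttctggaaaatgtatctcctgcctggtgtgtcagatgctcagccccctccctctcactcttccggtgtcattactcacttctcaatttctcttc
Zbtb46: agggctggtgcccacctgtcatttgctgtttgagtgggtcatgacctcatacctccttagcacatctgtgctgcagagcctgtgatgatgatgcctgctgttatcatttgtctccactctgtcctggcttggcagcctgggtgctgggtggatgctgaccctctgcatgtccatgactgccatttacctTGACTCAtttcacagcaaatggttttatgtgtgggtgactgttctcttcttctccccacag
The Itgax window held 2 ETS cores, on opposite strands, and 1 AP-1 motif between them. The Cd209a window held 1 ETS core and no AP-1 motif, and the Zbtb46 window 1 AP-1 motif and no ETS core. Of the 7 members with an entry in the table, which lacks Cd83, 5 held an ETS core (Batf3, Siglech, Itgax, Cd209a and Xcr1), against 19.7% of all 32851 promoters of the same length. An AP-1 motif stood in 2 of 7, Itgax and the uncertain Zbtb46 window, against 6.75% of all promoters. Of 3 longer motifs, which can share bases with one another and with the ETS core, the interferon response element, the ETS-IRF composite and an NF-κB motif, 0 stood in the 7 windows, where 2.98%, 2.30% and 1.21% of all promoters held them. A match is a description of letters and not a bound site.

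Library totals ran from 59988846 to 87776706 estimated counts. A member had between 262 and 80923 counts in a library, so counting error alone was at most 6.17% of a value. Mlkl itself ranged over 30.7 to 38.0 counts per 1000000 counts of the library (CPM) with the control ASO and over 3.74 to 7.53 CPM with the MLKL ASO, so the 6 libraries matched their labels (log2 fold change -2.55, edgeR adjusted p = 0.0655). All 12 endothelial markers examined, such as Cdh5 and Stab2, were above 0 in every library. So were all markers of B cells, T cells, natural killer (NK) cells, plasma cells, macrophages, monocytes, neutrophils and erythroid cells, so the libraries held RNA of blood cells beside that of endothelium. Mouse 1601 stood highest in all 10 B cell, all 10 T cell, all 8 NK cell and all 8 monocyte markers, and mouse 1608 in 9 of 12 endothelial markers.

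None of the 8 members passed the test between MLKL ASO and control ASO mice. In edgeR's quasi-likelihood test with Benjamini-Hochberg adjustment over all genes, 0 of 8 members had an adjusted p under 0.05, against a background of 0.0101% of the genes tested. The smallest adjusted p was 0.353, for Cd209a. At an unadjusted p under 0.05, Cd209a and Cd83 were lower with the MLKL ASO, 2 of 8 where 6.96% of all genes were. That count was 1 without mouse 1601, 1603 or 1604 and 3 without mouse 1607. Over all genes the count was 1420 of 20420 without mouse 1601, 1303 of 20427 without 1602 and 933 of 20856 without 1603. It was 927 of 20815 without mouse 1604, 861 of 20316 without 1607 and 1809 of 20898 without 1608. The same backgrounds hold for the wider lists below when 1 mouse was left out. Other tools likewise placed 0 of 8 members past the threshold: DESeq2 with a background of 2.81%, limma-voom with sample weights with 0.111%, and the likelihood-ratio test of edgeR with 1.45%. The authors' deposited table also has 0 of 8 past it, with 1.81% of its adjusted genes called and Cd209a closest at a log2 fold change of -0.88 (adjusted p = 0.0574). For the other members the authors' deposited table gives log2 fold changes of -0.88 for Cd83, -0.86 for Siglech, -0.55 for Xcr1, -0.37 for Clec9a, -0.17 for Batf3, -0.023 for Zbtb46 and 0.37 for Itgax, with adjusted p from 0.221 to 0.995.

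In direction, 7 of 8 members had a log2 fold change (MLKL ASO minus control ASO) below 0, where 51.2% of all genes did, and the median of the members was -0.43 against -0.0092 over all genes. This was shared with other leukocyte lists: 10 of 10 B cell, 10 of 10 T cell, 8 of 8 NK cell and 7 of 7 plasma cell markers were below 0. So were 7 of 8 monocyte markers (median -0.44), 7 of 12 macrophage, 1 of 10 neutrophil and 0 of 10 erythroid markers. Itgax was the member above 0. Under limma-voom and without mouse 1608, Zbtb46 was above 0 too. Cd209a was the member whose groups did not overlap, 1 of 8 where the groups did not overlap in 18.7% of all genes and lay lower with the MLKL ASO in 9.71%. Without mouse 1601 the median of the members was -0.28 and that of the monocyte markers 0.037. Leaving out a mouse can only add genes whose groups do not overlap. Without mouse 1608 these were 5 of 8 members, where 34.8% of all genes did not overlap, with Clec9a, Batf3, Cd209a and Cd83 lower and Zbtb46 higher with the MLKL ASO. Without any other 1 mouse these were 1 to 3 of 8, where 26.3% to 32.3% of all genes did not overlap. For genes of the wider lists below that lay lower without overlap, 9.71% of all genes is likewise the background.

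**Figure D1:**
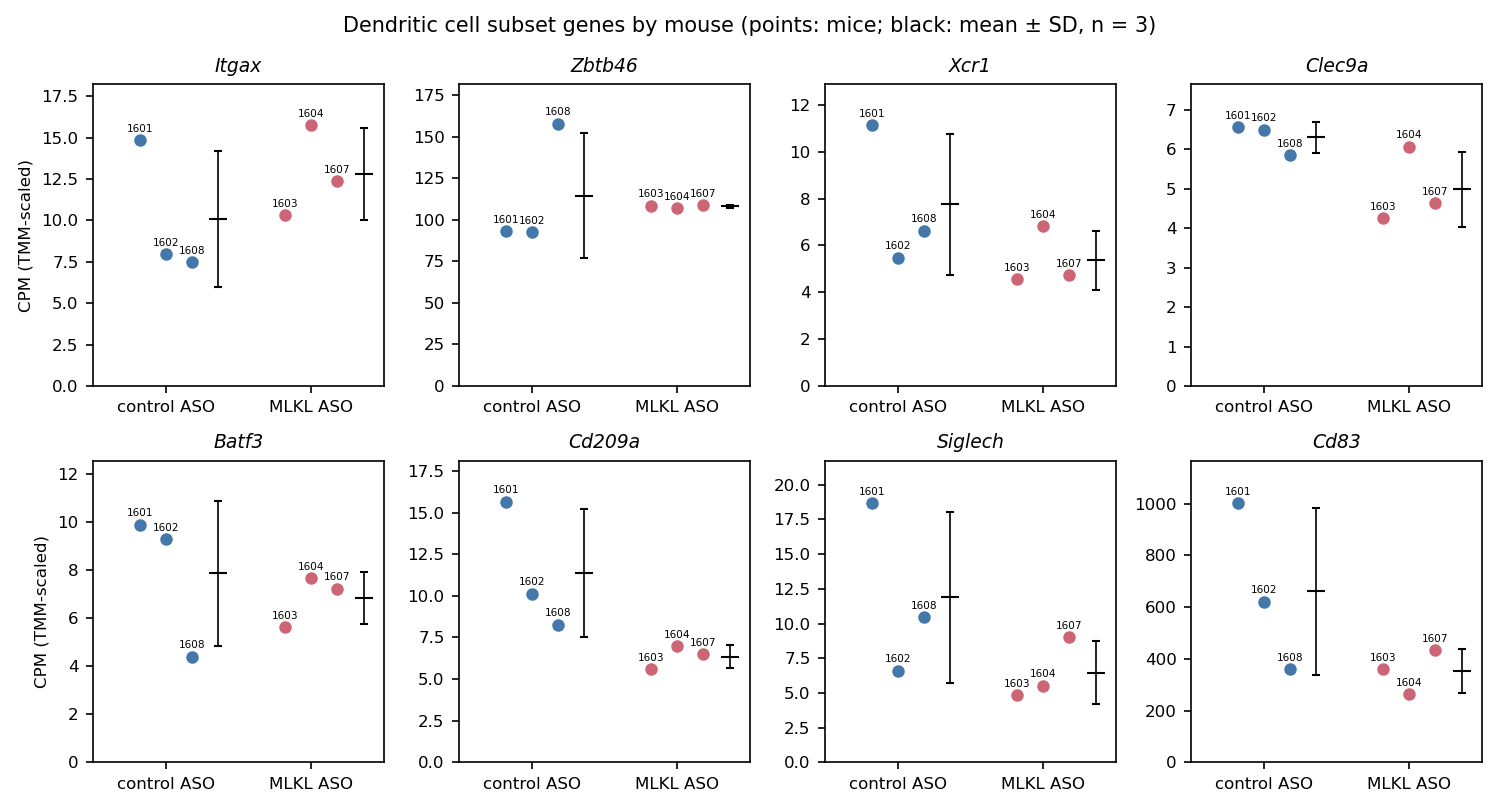
TMM-scaled CPM (vertical axis, starting at 0, a different scale in each panel) of the 8 members in each mouse, with control ASO mice in blue, MLKL ASO mice in red, and the mean ± SD of 3 mice in black. Cd209a is the panel in which all control ASO mice (8.27 to 15.7 CPM) lie above all MLKL ASO mice (5.59 to 6.96 CPM).

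Itgax encodes CD11c, the integrin αX chain by which mouse dendritic cells are commonly sorted. It measured 14.8, 7.94 and 7.48 CPM in control ASO mice 1601, 1602 and 1608, and 10.3, 15.8 and 12.4 CPM in MLKL ASO mice 1603, 1604 and 1607. All MLKL ASO mice lay above 2 of the control ASO mice and mouse 1601 lay among them, so the groups overlapped. The log2 fold change came to 0.34 (standard error 0.31, 95% interval -0.38 to 1.07, edgeR adjusted p = 0.696), and without 1 mouse it ran from 0.16 to 0.72, the latter without mouse 1601.

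The order of the mice for Itgax was that of the summed neutrophil markers, not that of the other dendritic cell members. This likeness was picked from several marker lists after the data were seen. It held for the sum: of the 10 single markers, 6 were highest in mouse 1601 and 4 in mouse 1604. The summed level of 10 neutrophil and granulocyte precursor markers was 1419 CPM in mouse 1604, 1269 in 1601, 771 in 1607, 461 in 1603, 356 in 1602 and 170 CPM in 1608, and Itgax had the same order through all 6 mice. The neutrophil sums ranged from 170 to 1269 CPM in control ASO and from 461 to 1419 CPM in MLKL ASO mice, with 0 markers at 0 CPM in any library. In log2 fold change 9 of 10 were above 0 with a median of 0.45, but this rested on single mice: 6 of 10 were below 0 without mouse 1604 (median -0.023) and 5 of 10 without mouse 1608 (median -0.0043). Their median came to 0.15 without mouse 1602 and to 1.78 without mouse 1601. Their part in the Itgax level was not tested. Itgax also shares sequence with Itgad, the neighbouring integrin αD gene of red pulp macrophages: 10.7% of the 31-base words in its GENCODE M21 transcripts also occur in Itgad. Itgad, named after its values were seen, measured 12.6, 3.73 and 8.97 CPM in mice 1601, 1602 and 1608, and 8.36, 9.09 and 5.56 CPM in mice 1603, 1604 and 1607. Reads that fit both genes were divided by the authors' quantification, so the Itgax level is uncertain to that extent.

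Zbtb46 encodes a transcription factor that among blood cells marks conventional dendritic cells and their precursors, and that endothelial cells also make. It measured 93.0, 92.7 and 158 CPM in control ASO mice 1601, 1602 and 1608, and 109, 107 and 109 CPM in MLKL ASO mice 1603, 1604 and 1607. Mice given the MLKL ASO were almost level with each other and lay between the control ASO mice. The log2 fold change came to -0.084 (standard error 0.22, 95% interval -0.59 to 0.42), and it was 0.22 without mouse 1608. Zbtb46 was highest in mouse 1608, as were 9 of the 12 endothelial markers, whose sum was 6335 CPM there against 3477 to 4884 CPM in the other control ASO mice and 4185 to 4683 CPM in MLKL ASO mice. The likeness did not extend to the other control ASO mice, where the endothelial sum was 4884 CPM in mouse 1602 and 3477 CPM in 1601 while Zbtb46 was level. Set against Cdh5, the endothelial cadherin, a comparison chosen after the data were seen, Zbtb46 stood at 71.2 ± 14.4 per 100 CPM of Cdh5 in control ASO and 67.1 ± 4.61 in MLKL ASO mice (SD, n = 3), with 59.5 to 87.2 among the control ASO mice. What part of the Zbtb46 level came from dendritic cells was not tested.

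Among other genes of conventional dendritic cells in general, Flt3, the receptor for the growth factor that drives dendritic cell development, was lower in each MLKL ASO mouse. It measured 15.7, 10.3 and 7.76 CPM in mice 1601, 1602 and 1608, and 6.09, 6.75 and 7.36 CPM in mice 1603, 1604 and 1607. The groups did not overlap, but the difference did not pass (log2 fold change -0.74, standard error 0.28, edgeR adjusted p = 0.383). Dpp4, a surface peptidase (CD26) of type 1 cells and of other cells, measured 45.2 ± 8.38 CPM in control ASO and 30.0 ± 2.66 CPM in MLKL ASO mice (SD, n = 3, edgeR adjusted p = 0.327). Of the 6 genes on this list, Itgax and Zbtb46 included, 5 were below 0 with a median of -0.22, and 3 without mouse 1601. Leaving out 1 mouse moved the median from -0.45 without mouse 1608 to -0.070 without mouse 1601.

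The 3 members for type 1 cells all lay below 0 but within the spread between mice. Xcr1, the receptor for the chemokine Xcl1, measured 11.1, 5.48 and 6.63 CPM in control ASO mice 1601, 1602 and 1608, and 4.56, 6.81 and 4.72 CPM in MLKL ASO mice 1603, 1604 and 1607. Mouse 1601 was well above the rest, and MLKL ASO mouse 1604 lay above 2 control ASO mice. Xcr1 had a log2 fold change of -0.53 (standard error 0.32, 95% interval -1.28 to 0.22), and -0.19 without mouse 1601.

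Clec9a, the receptor for dead cell remains, was the steadiest member within the control group. It measured 6.56, 6.50 and 5.86 CPM in mice 1601, 1602 and 1608, and 4.25, 6.07 and 4.64 CPM in mice 1603, 1604 and 1607. Mouse 1604 alone reached into the control range. The log2 fold change came to -0.34 (standard error 0.22, 95% interval -0.84 to 0.17, edgeR adjusted p = 0.576), and it stayed between -0.51 and -0.25 when any 1 mouse was left out. Of its 31-base words 4.63% also occur in Clec1b, the platelet receptor gene. Clec1b, named after its values were seen, measured 41.0 ± 22.2 CPM in control ASO and 72.7 ± 14.2 CPM in MLKL ASO mice (SD, n = 3). Its difference did not pass (log2 fold change 0.82, 95% interval -0.20 to 1.84, edgeR adjusted p = 0.504). The Clec9a level is uncertain to the extent that reads fit both genes.

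Batf3, the transcription factor of the lineage, measured 9.89, 9.29 and 4.40 CPM in control ASO mice 1601, 1602 and 1608, and 5.62, 7.65 and 7.23 CPM in MLKL ASO mice 1603, 1604 and 1607. Control ASO mice held both the highest and the lowest value. Its log2 fold change came to -0.20 (standard error 0.33, 95% interval -0.97 to 0.56), -0.017 without mouse 1601 and -0.49 without mouse 1608. All 3 type 1 members were highest in mouse 1601. Xcr1 and Clec9a were lowest in mouse 1603, then 1607, and Batf3 was lowest in mouse 1608.

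Of 13 genes of type 1 cells on the wider list, 11 were below 0 with a median of -0.29, and 0 passed after adjustment. At an unadjusted p under 0.05, 1 of 13 was lower, where 6.96% of all genes were. That 1 gene was Irf8, the factor on which type 1 cells depend and which B cells, macrophages and plasmacytoid cells also make. It measured 340, 327 and 406 CPM in control ASO mice 1601, 1602 and 1608, and 261, 268 and 266 CPM in MLKL ASO mice 1603, 1604 and 1607. These groups stayed apart and mouse 1601 was not the highest, unlike the 3 members (log2 fold change -0.44, standard error 0.12, edgeR adjusted p = 0.327). Wdfy4, needed for cross-presentation and also made by B cells, measured 23.3 ± 9.75 and 14.8 ± 1.56 CPM in control and MLKL ASO mice (SD, n = 3). The adhesion molecule gene Cadm1 measured 189 ± 61.5 and 154 ± 7.22 CPM and was highest, at 258 CPM, in mouse 1608, as 9 of the 12 endothelial markers were. Itgae, the CD103 chain, stood at 1.98 ± 1.78 and 1.73 ± 0.357 CPM, and Id2, a partner inhibitor of E proteins, at 158 ± 24.7 and 142 ± 16.1 CPM. The median of the type 1 list ran from -0.43 without mouse 1608 to -0.059 without mouse 1601, and the unadjusted count was 2 without mouse 1601 and 3 without mouse 1608.

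Cd209a was the member with the clearest separation. It encodes a C-type lectin (DC-SIGN) that is used as a marker of type 2 and monocyte-derived dendritic cells. Control ASO mice 1601, 1602 and 1608 measured 15.7, 10.1 and 8.27 CPM, and MLKL ASO mice 1603, 1604 and 1607 measured 5.59, 6.96 and 6.52 CPM. Every control ASO mouse was above every MLKL ASO mouse, and the means differed 1.79-fold, with 11.3 ± 3.84 CPM against 6.35 ± 0.702 CPM (SD, n = 3). The log2 fold change came to -0.84 (standard error 0.27, 95% interval -1.46 to -0.21, unadjusted p = 0.0156 and adjusted p = 0.353 in edgeR). Its exact two-sided permutation p was 0.1, the smallest that 3 mice against 3 allow. When 1 mouse was left out the log2 fold change ran from -1.02 without mouse 1608 to -0.55 without mouse 1601. Over all 15 alternative fits, DESeq2 and edgeR with other settings among them, its adjusted p ran from 0.0842 to 0.702.

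Cd209a belongs to a family of lectin genes in 1 cluster, so its paralogs were read beside it. None of its 31-base words occurs in another gene of GENCODE M21, so under that annotation no read of that length is shared. Cd209b, the lectin SIGNR1 of marginal zone macrophages, measured 38.3, 8.84 and 10.2 CPM in mice 1601, 1602 and 1608, and 22.7, 15.3 and 29.0 CPM in mice 1603, 1604 and 1607, which is a different order from that of Cd209a (log2 fold change 0.22, standard error 0.57). Cd209d stood at 2.52 ± 1.81 and 1.69 ± 0.760 CPM in control and MLKL ASO mice (SD, n = 3). Cd209c had means of 0.637 and 0.636 CPM and Cd209e of 0.511 and 0.472 CPM, Cd209f was below the count filter, and Cd209g was not among the rows.

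Among other genes of type 2 cells, Relb was the one that also kept the groups apart. On the list of 12, 8 were below 0 with a median of -0.25, and 0 passed. Cd209a and Relb were lower at an unadjusted p under 0.05, where 6.96% of all genes were. Relb, an NF-κB subunit that splenic type 2 cells need, measured 34.7 ± 5.56 CPM in control ASO and 27.0 ± 0.631 CPM in MLKL ASO mice (SD, n = 3, edgeR adjusted p = 0.407). Irf4, a factor of type 2 cells and also of plasma cells, measured 32.6, 16.1 and 14.2 CPM in mice 1601, 1602 and 1608, and 13.5, 11.0 and 15.4 CPM in mice 1603, 1604 and 1607. Sirpa, the CD47 receptor shared with macrophages, stood at 46.0 ± 24.6 and 41.5 ± 1.49 CPM, and the lectin gene Clec10a at 1.81 ± 0.741 and 1.29 ± 0.0942 CPM. Esam, an adhesion molecule of splenic type 2 cells and of endothelium, stood at 227 ± 85.5 and 256 ± 6.87 CPM and was lowest in mouse 1601 at 143 CPM. The median of this list ran from -0.39 without mouse 1602 to -0.10 without mouse 1601, and the unadjusted count from 1 (without mouse 1601, 1603, 1604 or 1607) to 3 without mouse 1608.

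Siglech encodes an inhibitory sialic acid lectin and is a widely used surface marker of mouse plasmacytoid cells. It measured 18.7, 6.60 and 10.4 CPM in control ASO mice 1601, 1602 and 1608, and 4.86, 5.53 and 9.04 CPM in MLKL ASO mice 1603, 1604 and 1607. Mouse 1607 lay above mouse 1602, so the groups overlapped. The means differed 1.84-fold, the log2 fold change came to -0.88 (standard error 0.41, 95% interval -1.85 to 0.092, edgeR adjusted p = 0.455), and it was -0.42 without mouse 1601.

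The plasmacytoid list had the lowest median of the 4 subset lists, with 13 of 14 genes below 0 and a median of -0.57, although 0 passed and no test set it against the others. Spib, Ccr9 and Klk1 were lower at an unadjusted p under 0.05, 3 of 14 where 6.96% of all genes were. That count was 0 without mouse 1603 or 1604, 1 without mouse 1601 and 6 without mouse 1607. Spib, a transcription factor of plasmacytoid and B cells, measured 69.1, 27.3 and 39.0 CPM in mice 1601, 1602 and 1608, and 20.9, 16.9 and 28.7 CPM in mice 1603, 1604 and 1607. The chemokine receptor gene Ccr9 measured 5.61, 2.47 and 4.48 CPM in the same control ASO mice, and 2.13, 1.84 and 2.95 CPM in the MLKL ASO mice. Siglech, Spib and Ccr9 were all highest in mouse 1601, then in mice 1608, 1607 and 1602 in that order, with mice 1603 and 1604 lowest. Other genes of the list, named after their values were seen, had other orders. Cox6a2 was lowest in mouse 1602 (log2 fold change -0.0091) and Pacsin1 in mouse 1608 (-1.02), and Irf7 was highest in mouse 1604 (0.16). Klk1, a kallikrein gene read in plasmacytoid cells, measured 2.29 ± 0.531 CPM in control ASO and 1.16 ± 0.305 CPM in MLKL ASO mice (SD, n = 3) without overlap (edgeR adjusted p = 0.364). Tcf4, the factor that sets plasmacytoid fate and is also made by endothelium, stood at 344 ± 70.6 and 316 ± 23.4 CPM and was highest, at 416 CPM, in mouse 1608. Bst2, an interferon-induced gene and not a restricted marker here, stood at 337 ± 82.5 and 329 ± 29.0 CPM, again highest in mouse 1608. Without mouse 1601 the list had 10 of 14 genes below 0 and a median of -0.31, and without mouse 1608 also 10, with a median of -0.74.

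Cd83 encodes a surface protein of mature dendritic cells that stabilises MHC class II and CD86 there, and it was by far the most abundant member. It measured 1003, 621 and 359 CPM in control ASO mice 1601, 1602 and 1608, and 361, 264 and 434 CPM in MLKL ASO mice 1603, 1604 and 1607. Mouse 1608 lay within the MLKL ASO range, so the groups overlapped. The means differed 1.87-fold, the log2 fold change came to -0.91 (standard error 0.36, 95% interval -1.75 to -0.057, unadjusted p = 0.0394 and adjusted p = 0.403 in edgeR), and it was -0.49 without mouse 1601 and -1.20 without mouse 1608.

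Cd83 had nearly the order of the summed B cell markers across the mice, a likeness also picked after the data were seen. The sum of the 10 B cell markers was 2525 CPM in mouse 1601, 1432 in 1602, 1274 in 1607, 1109 in 1608, 1025 in 1603 and 807 CPM in 1604, and Cd83 had the same order apart from mice 1608 and 1603, which were 359 and 361 CPM. The B cell sums ranged from 1109 to 2525 CPM in control ASO and from 807 to 1274 CPM in MLKL ASO mice, all 10 markers were below 0 with a median of -0.71 (-0.33 without mouse 1601), and 0 were at 0 CPM in any library. Among immediate early genes, which stimuli and tissue handling induce, all 13 were below 0 with a median of -0.82. Of these, 10 were lower at an unadjusted p under 0.05, where 6.96% of all genes were, and 7 to 12 when 1 mouse was left out. The list was chosen with earlier results of these data known, so this count is a description only. The immediate early sums were 8317, 8281 and 9955 CPM in control ASO mice 1601, 1602 and 1608, and 4239 to 5736 CPM in MLKL ASO mice. Mouse 1608 had the highest sum and the lowest Cd83 level of the control ASO mice. The part of B cells or of immediate early induction in the Cd83 level was not tested.

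The other maturation genes were less alike. Ccr7, the receptor that leads mature dendritic cells and naive lymphocytes into T cell zones, measured 481, 273 and 211 CPM in control ASO mice 1601, 1602 and 1608, and 162, 142 and 210 CPM in MLKL ASO mice 1603, 1604 and 1607. These groups met without overlapping, between 211 and 210 CPM (log2 fold change -0.91, standard error 0.31, edgeR adjusted p = 0.367). The costimulatory genes Cd86 (84.0 ± 37.1 and 63.4 ± 13.7 CPM) and Cd40 (30.7 ± 11.8 and 25.1 ± 6.18 CPM) overlapped, and so did Fscn1, the actin bundler of dendrites, at 39.3 ± 16.2 and 33.6 ± 4.87 CPM in control and MLKL ASO mice (SD, n = 3). Of the 14 genes on this list 11 were below 0 with a median of -0.30, and 0 passed. Cd83 and Ccr7 were lower at an unadjusted p under 0.05, where 6.96% of all genes were. The median ran from -0.55 without mouse 1608 to -0.038 without mouse 1601, and the unadjusted count was 0 without mouse 1604 and 1 without mouse 1601, 1602 or 1603.

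Signals that dendritic cells grow on and home by formed the last list. Flt3l, the ligand of Flt3, measured 25.4, 30.9 and 20.5 CPM in control ASO mice 1601, 1602 and 1608, and 19.2, 18.1 and 13.9 CPM in MLKL ASO mice 1603, 1604 and 1607. Both ligand and receptor were thus lower in each MLKL ASO mouse than in any control ASO mouse, and neither passed (edgeR adjusted p = 0.372 for Flt3l). Xcl1, the ligand of Xcr1 made by NK and CD8 T cells, measured 4.41, 1.87 and 1.87 CPM in control ASO mice, and 1.72, 1.34 and 0.915 CPM in MLKL ASO mice, without overlap (edgeR adjusted p = 0.422).

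Gpr183, the oxysterol receptor that places type 2 dendritic cells and B cells at the white pulp edge, measured 71.7, 43.6 and 33.3 CPM in control ASO mice 1601, 1602 and 1608, and 22.6, 21.5 and 28.9 CPM in MLKL ASO mice 1603, 1604 and 1607. Each control ASO mouse lay above each MLKL ASO mouse (log2 fold change -1.02, standard error 0.28, edgeR adjusted p = 0.327). Of the 71 genes tested on the 6 dendritic cell lists, 0 passed in edgeR's quasi-likelihood test, in limma-voom or in the likelihood-ratio test. Gpr183 was the one that passed in DESeq2 (adjusted p = 0.0370), where 2.81% of all genes passed. Ltb, the lymphotoxin β gene of lymphocytes whose signal sustains splenic type 2 cells, measured 357 ± 120 and 201 ± 28.9 CPM, also without overlap (edgeR adjusted p = 0.349). Of the 13 genes on this list 12 were tested, Csf2 being below the count filter. Of these, 10 were below 0 with a median of -0.49. At an unadjusted p under 0.05, 5 of 12 were lower, where 6.96% of all genes were. Those 5 were Gpr183, Ltb, Flt3l, Xcl1 and Lta, the lymphotoxin α gene, which is named after its values were seen (log2 fold change -1.16). The 2 genes above 0, also named after their values were seen, were Ch25h, whose enzyme starts the oxysterol ligand of Gpr183, at 0.75 and the Notch ligand gene Dll1 at 0.61. Without mouse 1601, 8 of 12 were below 0 with a median of -0.49, and 3 were lower at an unadjusted p under 0.05, as were 3 without mouse 1602 and 2 without mouse 1607. The T cell markers, which mark cells that make Ltb and Xcl1, were all 10 below 0 with a median of -1.19 (-0.72 without mouse 1601), and their sums ran from 244 to 629 CPM in control ASO and from 164 to 203 CPM in MLKL ASO mice. The 8 NK cell markers, with a median of -0.90 (-0.58 without mouse 1601), summed to 49.9 to 111 CPM and to 34.2 to 48.0 CPM. The part of these cells in the Ltb and Xcl1 levels was not tested.

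**Figure D2:**
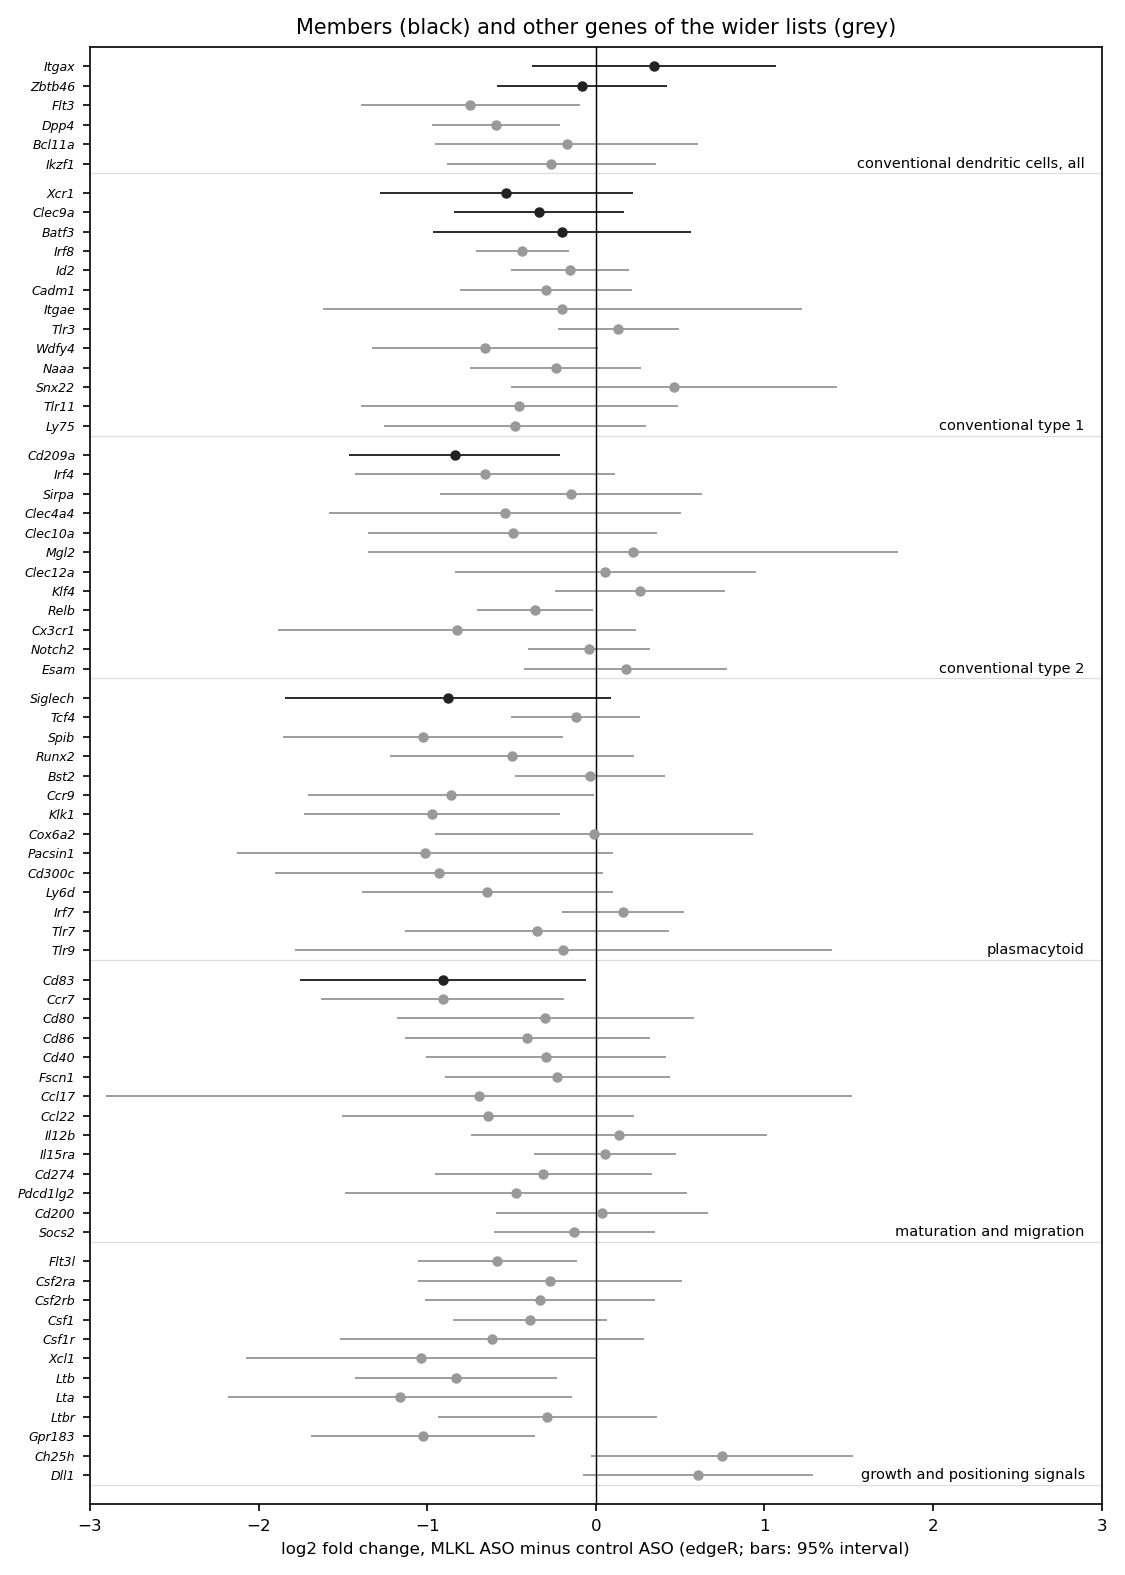
Log2 fold change (horizontal axis, MLKL ASO minus control ASO, points with 95% intervals from edgeR) of each tested gene on the 6 wider dendritic cell lists, members in black and other genes in grey. Most points lie left of 0, Itgax is the member right of it, and 0 of the 71 genes passed in this test after adjustment over all genes.

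Since mouse 1601 held the most leukocyte RNA, the members were also set against Ptprc (CD45), which all leukocytes carry. Ptprc itself measured 703, 362 and 280 CPM in control ASO mice 1601, 1602 and 1608, and 274, 314 and 340 CPM in MLKL ASO mice 1603, 1604 and 1607. Per 100 CPM of Ptprc, Itgax stood at 2.11, 2.20 and 2.67 in the control ASO mice, and at 3.75, 5.02 and 3.63 in the MLKL ASO mice. Every MLKL ASO mouse lay above every control ASO mouse, and mouse 1601 no longer stood out. The means differed 1.78-fold (exact two-sided permutation p = 0.1, the smallest that 3 mice against 3 allow, and 0.4 adjusted over the 8 members).

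Cd209a lay the other way, at 2.23, 2.80 and 2.96 per 100 CPM of Ptprc in mice 1601, 1602 and 1608, and at 2.04, 2.22 and 1.92 in mice 1603, 1604 and 1607. Its groups were only just apart, since mouse 1601 at 2.23 and mouse 1604 at 2.22 nearly met (exact permutation p = 0.1, and 0.4 adjusted). Per Ptprc, groups lay apart and lower with the MLKL ASO in 1.28% of all genes and apart and higher in 14.4%, and 1 of 8 members, Cd209a and Itgax, stood in each place. Set against the sum of Ptprc, Coro1a, Laptm5 and Cd53, another leukocyte measure, Itgax stayed apart and Cd209a overlapped.

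The other members per 100 CPM of Ptprc did not separate. Xcr1 stood at 1.82 ± 0.474 and 1.74 ± 0.395, Clec9a at 1.61 ± 0.604 and 1.62 ± 0.289, and Batf3 at 1.85 ± 0.629 and 2.20 ± 0.206 in control and MLKL ASO mice (SD, n = 3). Siglech stood at 2.74 ± 0.957 and 2.06 ± 0.515, and Cd83 at 148 ± 22.1 and 114 ± 26.4. For the type 1 genes Xcr1 and Clec9a the means were nearly level on this scale, where their CPM had been lower with the MLKL ASO. Without mouse 1608 the groups lay apart in 4 of 8 members, Itgax and Zbtb46 higher, where 45.6% of all genes lay so, and Cd209a and Cd83 lower, where 1.90% did.

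**Figure D3:**
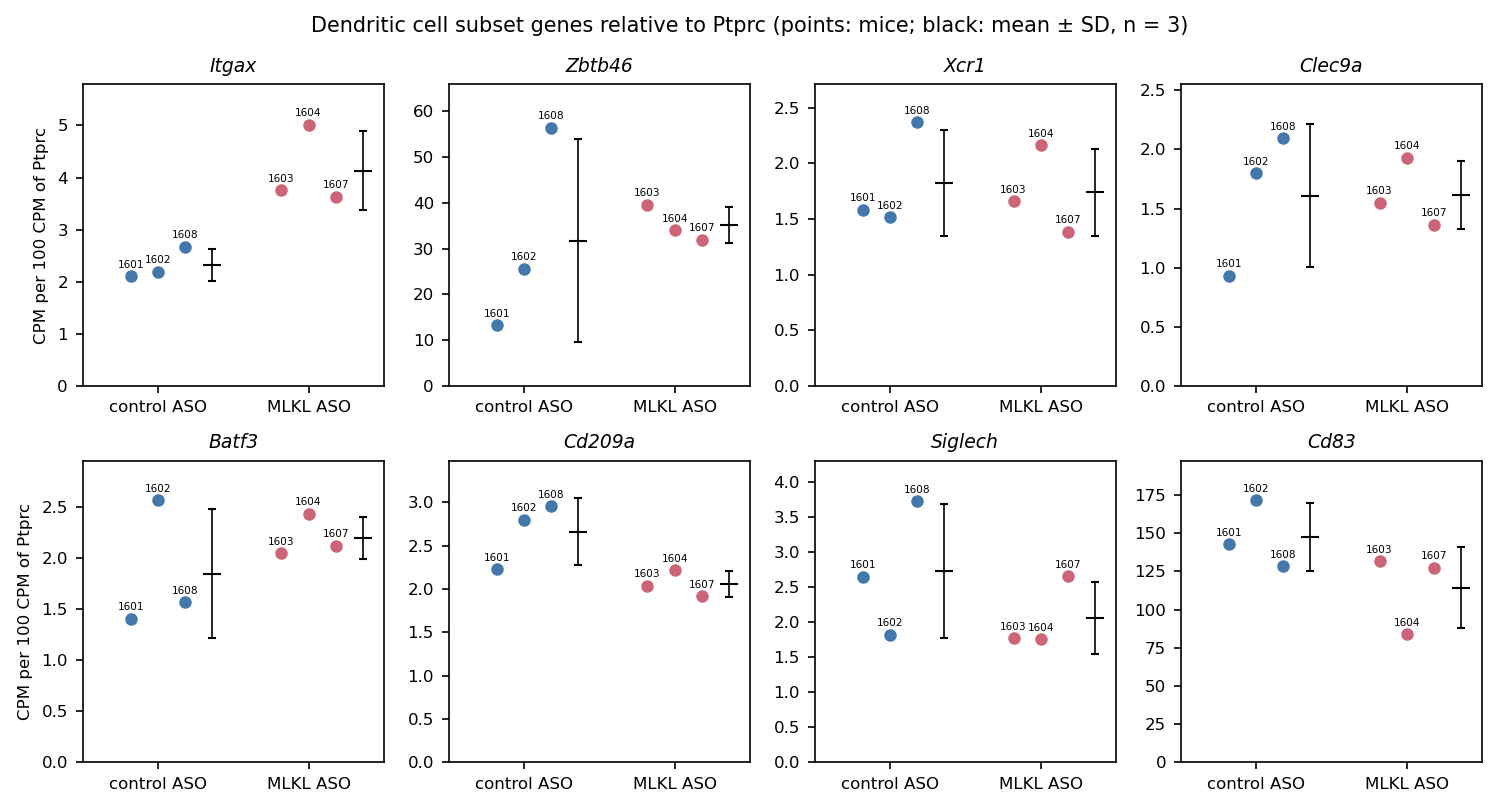
CPM of each member per 100 CPM of Ptprc in the same mouse (vertical axis, starting at 0, a different scale in each panel), with control ASO mice in blue, MLKL ASO mice in red, and the mean ± SD of 3 mice in black. Itgax lies at 2.11 to 2.67 in control ASO and at 3.63 to 5.02 in MLKL ASO mice, while Xcr1, Clec9a and Batf3 overlap.

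Levels were compared between members per kilobase of the longest coding transcript in GENCODE M21. On this scale control ASO mice held 267 ± 131 CPM per kilobase of Cd83, 21.6 ± 7.08 of Zbtb46, 9.81 ± 3.76 of Batf3, 7.66 ± 2.59 of Cd209a, 5.17 ± 2.68 of Siglech, 2.49 ± 1.02 of Itgax, 1.92 ± 0.118 of Clec9a and 1.74 ± 0.672 of Xcr1 (means ± SD, n = 3). Cd83 and Zbtb46 thus stood above the other members, and from Batf3 down the control ASO ranges of neighbours in this order overlapped. The ranges of Zbtb46 (17.5 to 29.8 CPM per kilobase) and Batf3 (5.49 to 12.3) did not. In MLKL ASO mice the order was the same except that Itgax (3.17 ± 0.682 CPM per kilobase) stood above Siglech (2.81 ± 0.976).

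**Figure D4:**
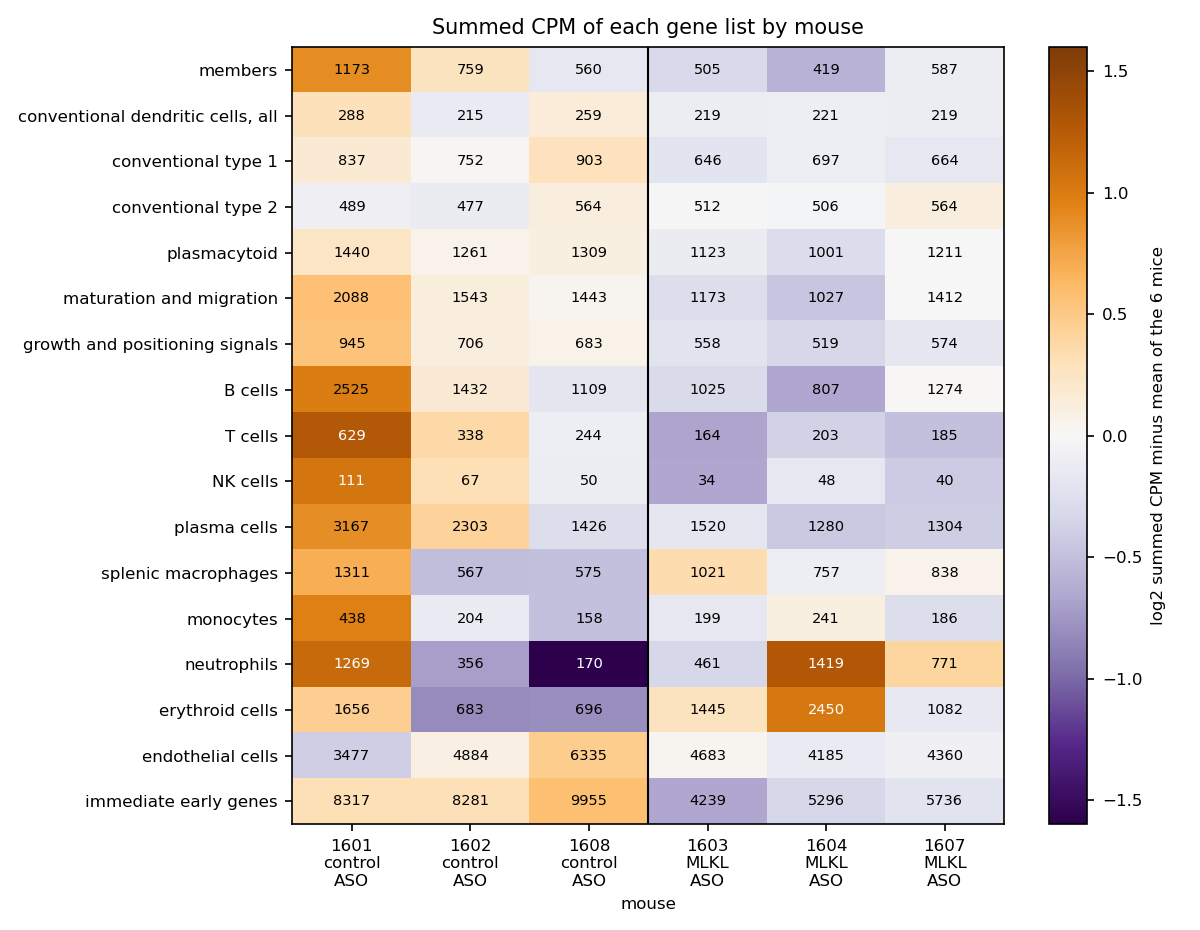
Summed TMM-scaled CPM of each gene list (numbers in the cells) in each mouse, with colour for the log2 sum minus its mean over the 6 mice, control ASO mice left of the line. Mouse 1601 is high in most leukocyte lists, mouse 1608 in endothelial genes (6335 CPM), and mouse 1604 in neutrophil (1419 CPM) and erythroid (2450 CPM) genes.

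Across the 6 mice, the genes whose log2 CPM resembled the 8 members most, among 9491 other genes with a mean of at least 10 CPM, were Rapgef6, Emb, Fmnl1, Ighv5-9 and Selplg. Their mean Pearson correlation with the members was 0.60 to 0.61, over 6 points that share libraries. Selplg, the P-selectin ligand of leukocytes, measured 135 ± 54.6 CPM in control ASO and 94.9 ± 15.7 CPM in MLKL ASO mice (SD, n = 3). The immunoglobulin segment Ighv5-9 stood at 21.4 ± 27.2 and 3.10 ± 3.14 CPM, with 52.8 CPM in mouse 1601.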

How the data were processed

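RNA of splenic endothelial cells was sequenced from 3 control ASO and 3 MLKL ASO mice, 1 library per mouse. Per the submitters' processing notes the authors used fastp 0.20.1, Salmon 1.3.0 and DESeq2; the sources used here name no build or annotation. The deposited table holds estimated counts per gene symbol (69.3% of values are not whole), which were rounded. The deposited DESeq2 table gives, per the file headers, a mean normalised signal, a log2 fold change with its standard error, a Wald score, a p-value and an adjusted p-value.

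Genes passing edgeR's default count filter were scaled by TMM and compared with its quasi-likelihood test (edgeR 4.0.16, R 4.3.3), Benjamini-Hochberg adjusted over 19745 genes. CPM uses TMM-scaled totals. Alternatives used DESeq2 1.42.0, limma 3.58.1, other scalings and filters, and each mouse left out. The edgeR likelihood-ratio test, the list medians without each mouse and the Cdh5 ratio were chosen after seeing the data. The fits were tested on simulated data. The members and lists were chosen with earlier results of these data known. Named genes are the members, Mlkl, a fixed set of companions and Cd209 paralogs, the 2 genes of smallest p on each list and the 5 genes most like the members; of these, only those that bear on the dendritic cell genes are described. Whether the mice were independent cohorts is not stated, so p-values measure only the spread between these libraries.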

Additional observations from a re-analysis of the deposited data

How the results depend on the processing

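Across 15 alternatives each, the 8 members gave 120 log2 fold changes, of which 118 kept their direction and stayed short of the threshold, and the count of members past it was 0 in every one of these runs. The 2 exceptions were Zbtb46, at 0.11 under limma-voom with sample weights and at 0.22 without mouse 1608; leaving out 1 mouse gave it -0.23 to 0.22. The number of genes past the threshold was 2, and became 9 with library totals only, 4 with upper quartile scaling, 521 with DESeq2, 22 with limma-voom and 286 with the likelihood-ratio test, and ran from 0 to 19 when 1 mouse was left out; the cause was not tested. Members whose groups did not overlap numbered 1, where 18.7% of all genes did not overlap, and became 2 with library totals only. They ran from 1 to 5 when 1 mouse was left out, where 26.3% to 34.8% of all genes did not overlap. Per Ptprc they numbered 2, 1 lower where 1.28% of all genes lay so and 1 higher where 14.4% did. They became 1 against the sum of the 4 leukocyte genes. When 1 mouse was left out they ran from 2 to 4, where 19.5% to 47.6% of all genes did not overlap. For library totals only and for the 4 leukocyte genes the share over all genes was not computed. The scalings moved the median of all genes by at most 0.019 on the log2 scale. No paired analysis was possible because mouse numbers do not recur between the groups. Counting error was at most 6.17% of a member's value.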
